A study of Mus musculus with 7 samples.

Results

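Intraflagellar transport genes encode the trains that carry cargo along the cilium and the motors that pull them. The 32 genes described here were a fixed list of IFT-B, IFT-A, kinesin-2 and dynein-2 components, plus the IFT-A adaptor Tulp3, looked up by symbol. All 32 were present in each of the 7 count tables, among 32531 symbols. They were split by textbook membership into 11 genes of the IFT-B1 core, 6 of the peripheral IFT-B2 complex, 6 of IFT-A, 1 adaptor, 4 of kinesin-2 and 4 of dynein-2. All 32 passed the low-count filter.

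The libraries were made from ventricle tissue of the brain of adult animals of the Dcdc2a-EGFP/Rpl10a TRAP line ES2575, which the series describes as a profile of ependymal cells, the ciliated cells that line the ventricles. Translating ribosome affinity purification (TRAP) labels ribosomes of chosen cells with EGFP fused to Rpl10a, here by way of Dcdc2a, and recovers tagged polysomes with anti-EGFP antibodies. The IP group held 3 libraries of ribosome-bound RNA (numbered 1, 3 and 4) and the Input group 4 libraries of RNA from the tissue (numbered 1 to 4), and no IP with the number 2 was analysed. Both groups carried the transgene, no treatment was labelled, and no label gave the number of animals behind a library, so p-values measure the spread between libraries, which may be technical. The tag marks whichever cells of this line use the Dcdc2a construct. In bulk RNA, fewer cells of a type and less RNA per cell cannot be told apart.

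Trains assemble at the base of the cilium from IFT-B and IFT-A. The heterotrimeric motor kinesin-2 pulls them to the tip, and dynein-2, carried out as cargo, brings them back to the base. IFT-B carries tubulin and other building material, while IFT-A, with Tulp3, admits many membrane receptors and takes part in the return. Ependymal cells bear tufts of motile cilia, whose assembly uses this transport.

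Counts assigned to genes ranged from 42422439 to 52175180 in the IP libraries and from 37203427 to 44754345 in the Input libraries. At that depth 3 counts in a library equalled 0.0575 to 0.0806 CPM (counts-per-million) of the unscaled library size, which covers counting error alone. All other CPM values use library sizes scaled by the TMM method. The lowest count of any of the 32 genes in any library was 15, in Ttc30a1. The ependymal markers (Foxj1, Ccdc153, Tmem212, Rarres2, Tm4sf1 and Mia) summed to 130 CPM in IP 1, 1602 in IP 3 and 1379 in IP 4, against 15.2 to 25.4 in the Input libraries, and 6 of 6 were called higher in IP. With the replicate block 3 of these 6 were called, with limma-voom 0, and 1 when IP 4 was left out. The markers were chosen with earlier results of these data known, so their calls are not an independent check. Over all tested genes 3.64% were called higher in edgeR without the block, 0.553% with it and 0.432% with limma-voom. When IP 4 was left out, 10 genes in all were called higher (edgeR). IP 1 stood apart with the lowest ependymal sum of the IP libraries, and values without it are given beside several of the results. Reads not uniquely aligned made up 19.8% of lines in IP 1, 29.6% in IP 3 and 39.3% in IP 4, against 20.9% to 21.2% in the Inputs. Reads in no gene made up 18.4% in IP 1, 8.85% in IP 3 and 8.15% in IP 4, against 15.2% to 18.2% in the Inputs, so on both shares IP 1 lay closer to the Inputs than IP 3 and IP 4 did. The part of these shares in the results was not tested. Reads in more than 1 gene made up 1.51% to 2.01% of an IP library's lines and 9.33% to 12.9% of an Input library's.

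Of the 32 genes, 31 had a log2 fold (IP over Input) above 0, where 53.1% of all 17375 tested genes did. Called higher in IP were 4 genes, Ift43, Tulp3, Wdr34 and Cluap1, and 0 were called lower (quasi-likelihood test of edgeR, a package for count data, Benjamini-Hochberg adjusted p under 0.05 over all tested genes). Over all tested genes 3.64% were called higher and 2.16% lower. The median fold of the 32 was 0.82 on the log2 scale, with a range of -0.14 to 2.73, beside 0.06 for all tested genes. At an unadjusted p under 0.05 there were 23 of the 32, against 22.7% of all tested genes. The remaining 28 did not pass, and the values given for them below are measurements without a call.

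**Figure D1:**
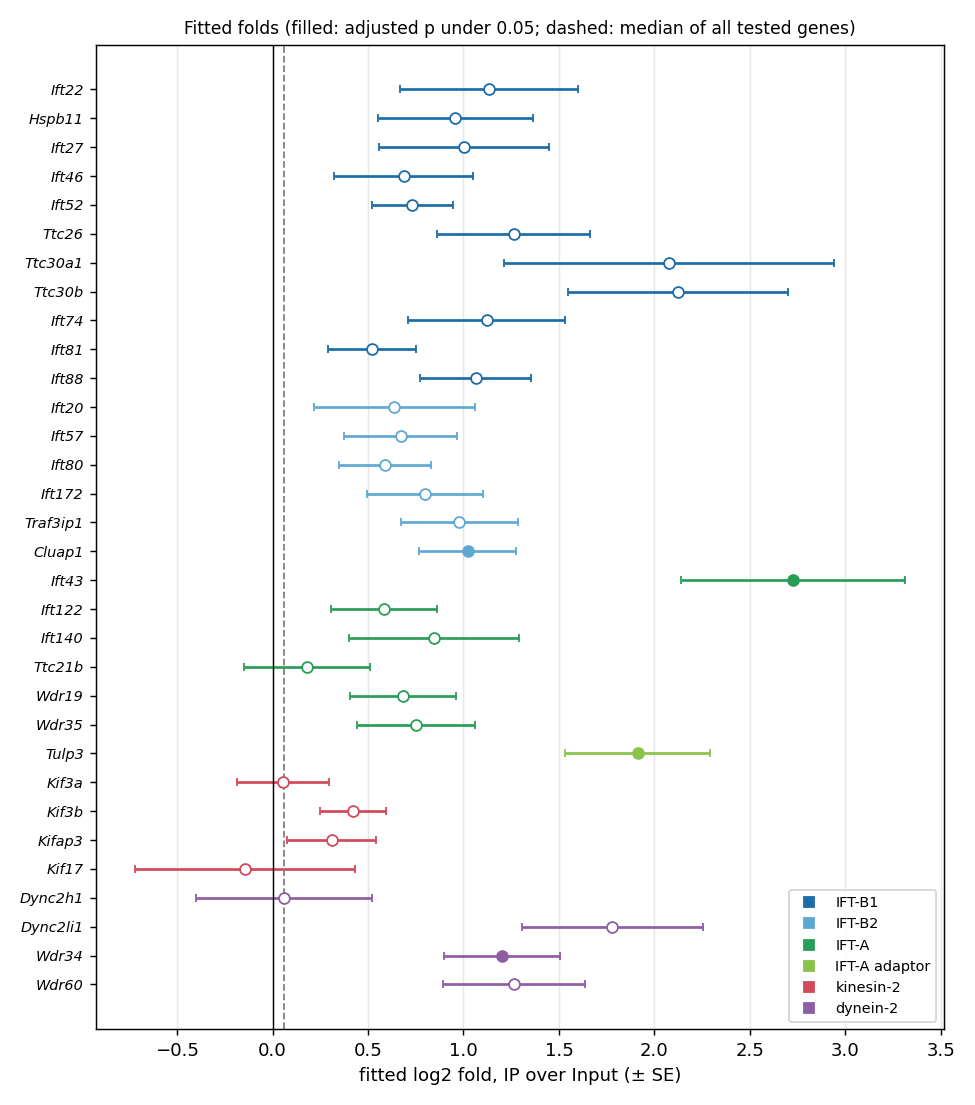
Fitted log2 fold (IP over Input) of each of the 32 genes with its standard error, coloured by subcomplex; filled points had an adjusted p under 0.05. The filled points are Cluap1, Ift43, Tulp3 and Wdr34, and Kif17 is the only point below 0.

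Every IP library lay above every Input library for 12 of the 32 genes, where 9.55% of all tested genes did, and every IP lay below every Input for 0, where 10.4% of all tested genes did. These 12 were Ift52, Ift88, Ift80, Ift172, Traf3ip1, Cluap1, Ift43, Ift122, Tulp3, Kif3b, Wdr34 and Wdr60. Taken 1 library at a time, IP 1 was above all 4 Inputs for 19 genes, IP 3 for 26 and IP 4 for 25, where the shares over all tested genes were 31.4%, 32.6% and 31.7%. The summed level of the 32 genes was 1933 CPM in IP 1, 2436 in IP 3 and 2019 in IP 4, against 1334 to 1391 CPM in the 4 Inputs. The IP sums did not overlap the Input sums.

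The 3 IP libraries differed in which genes were high. The median log2 ratio of a library to the mean Input over the 32 genes came to 0.48 for IP 1, 1.20 for IP 3 and 0.87 for IP 4, beside 0.04, -0.02 and 0.01 over all tested genes. IP 1 was the lowest of the 3 IP libraries for 21 genes and the highest for 10. The 10 were Ift172, Ift122, Ift140, Ttc21b, Wdr19, Kif3a, Kifap3, Kif17, Dync2h1 and Wdr60. Without IP 1 the median fold was 1.0, and 20 of the 32 genes were called higher and 1 lower, where 12.5% and 9.55% of the 18049 genes then tested were (edgeR). With the replicate number as a block the median was 0.81 and 0 of the 32 were called, where 0.553% of tested genes were called higher and 0.19% lower (edgeR).

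**Figure D2:**
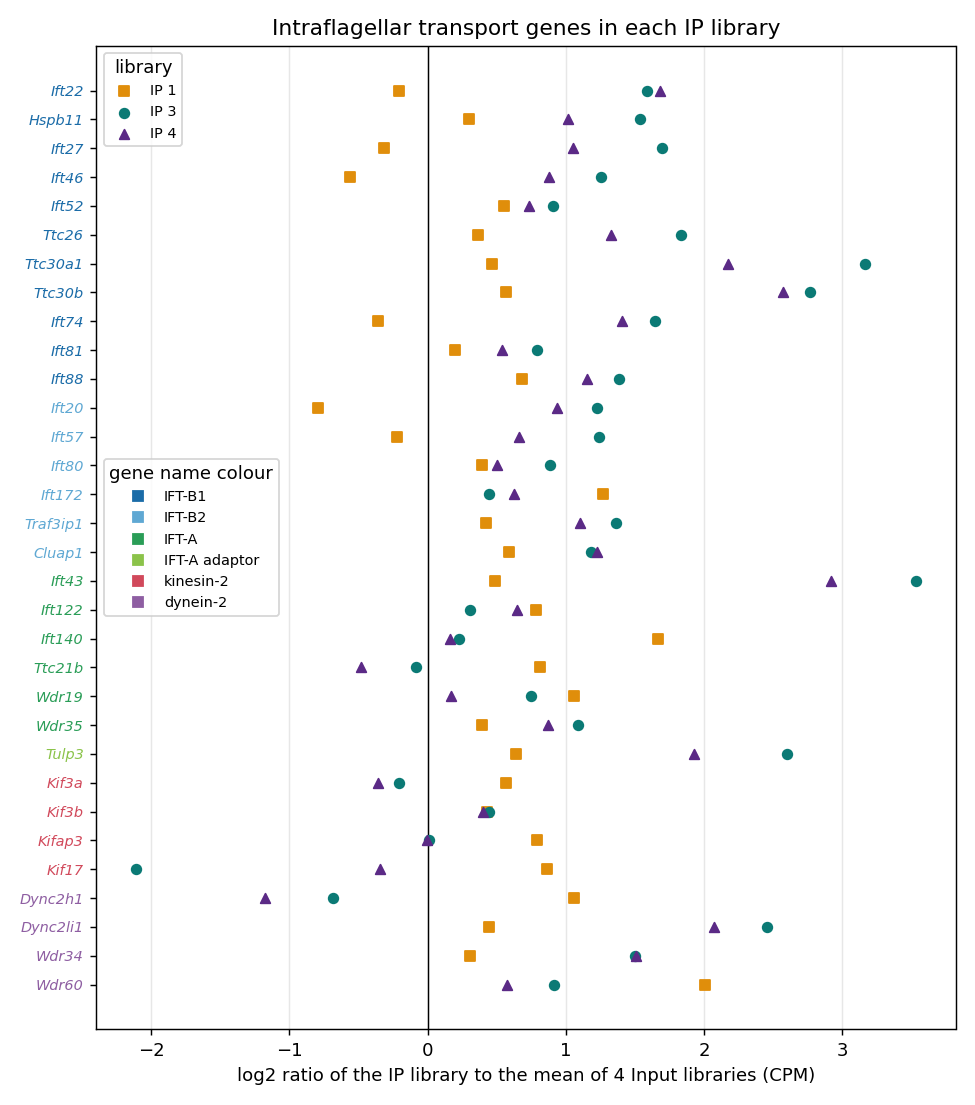
Log2 ratio of each IP library (square IP 1, circle IP 3, triangle IP 4) to the mean of the 4 Input libraries, on the CPM scale, for the 32 genes in order of subcomplex. IP 1 lies left of the other two for most IFT-B genes and right of them for most IFT-A core and kinesin-2 genes.

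The promoters of the genes with a call are shown because those genes passed the test. RefSeq promoters (250 bases before to 50 after the start, build GRCm38.p6) were matched by symbol for 27 of the 32 genes. The last 100 bases of the upstream part are printed below, 5′ to 3′ on the gene's strand, for Ift43 (chr12:86082461-86082560, plus strand), Tulp3 (chr6:128355852-128355951, minus strand) and Wdr34 (chr2:30048880-30048979, minus strand), and Cluap1 is left out because more than 30 bases of its window lie in its annotated gene. Of the printed stretches, 20 bases for Ift43, 2 for Wdr34 and 0 for Tulp3 lie in the annotated gene.
Ift43: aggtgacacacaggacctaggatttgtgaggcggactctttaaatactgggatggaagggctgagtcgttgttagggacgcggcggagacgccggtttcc
Tulp3: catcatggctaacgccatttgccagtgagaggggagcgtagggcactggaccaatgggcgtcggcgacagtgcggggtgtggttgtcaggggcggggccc
Wdr34: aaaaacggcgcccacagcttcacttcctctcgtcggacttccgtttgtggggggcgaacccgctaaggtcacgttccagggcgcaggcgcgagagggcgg
They were 56%, 66% and 65% G or C, in that order.

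Promoters were searched on both strands for GTTGCC, a half-site of the RFX factors that regulate cilium genes, for its variant GTTACC, and for the forkhead motif GTAAACA. The 3 are different letters, and no occurrence of 1 overlapped another in the promoters of these genes. GTTGCC or its reverse complement GGCAAC was present in 11 of 27 promoters (40.7%), against 14.1% of the 27025 symbols with a promoter. The 11 were Ift27, Ttc26, Ift88, Ift57, Ift172, Traf3ip1, Ift140, Wdr35, Kif3a, Kif17 and Dync2h1. The 4 called genes held no GTTGCC in this window, which says only that those letters are not there. GTTACC was in 2 of 27 (7.41%, against 8.16% of symbols), Ift57 and Kifap3, and GTAAACA in 0 of 27, against 4.05% of symbols. A match is a description of the letters and not a measured binding site.

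Occurrences are printed for 1 or more genes of each subcomplex, with the motif in capitals, on the gene's strand, 5′ to 3′. They are from Ift88 (chr14:57424080-57424109, plus strand), Ift172 (chr5:31291097-31291126, minus strand), Traf3ip1 (chr1:91494577-91494606, plus strand), Ift140 (chr17:25015965-25015994, plus strand), Wdr35 (chr12:8974029-8974050, plus strand), Kif3a (chr11:53567259-53567288, plus strand) and Dync2h1 (chr9:7177009-7177034, minus strand).
Ift88: ggagtcgcgcctGGCAACggctgggcgtcc
Ift172: tgtcgcactcacGTTGCCtgtgcgtcagcg
Traf3ip1: gggcgcgcgtccGTTGCCaaggccgcgcgg
Ift140: gcgtgttgtgacGGCAACctcgcgcccttg
Wdr35: tgggcggcggtgGTTGCCaggc
Kif3a: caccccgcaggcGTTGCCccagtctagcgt
Dync2h1: gcgacggagcttGGCAACtgctgagt
The annotated gene reaches over the whole printed stretch of Ift88, Wdr35 and Dync2h1 and 20 bases of that of Ift172. Ift88, Ift140 and Dync2h1 show the motif as GGCAAC, its reverse complement, and the others as GTTGCC. Among these genes the fold on the log2 scale ran from 0.06 in Dync2h1 and Kif3a to 1.06 in Ift88.

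The IFT-B1 core had 11 of 11 folds above 0 and 0 called. Its median fold was 1.06 on the log2 scale, with a range of 0.52 to 2.12. The summed level was 246 CPM in IP 1, 597 in IP 3 and 498 in IP 4, against 216 to 256 CPM in the Inputs, so IP 1 lay within the Input range and IP 3 and IP 4 above it. IP 3 and IP 4 were above every Input for all 11 genes and IP 1 for 2, Ift52 and Ift88. The shares over all tested genes were 32.6% for IP 3, 31.7% for IP 4 and 31.4% for IP 1. Without IP 1 all 11 were called higher, where 12.5% of all genes then tested were (edgeR), and the median was 1.38.

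Ttc30b (chromosome 2, 75935849 to 75938585, minus strand) had the largest fold of the core. It encodes a repeat protein of the TTC30 pair that, with Ttc26, binds the core and is linked to tubulin modification. It had 5.67, 26.3 and 22.9 CPM in IP 1, IP 3 and IP 4, against 7.53, 3.73, 2.51 and 3.0 in Inputs 1 to 4. IP 3 and IP 4 lay above every Input, and IP 1 within their range. Its log2 fold was 2.12 ± 0.58 (standard error, SE) and missed the threshold (adjusted p = 0.0591 in edgeR), and without IP 1 it was 2.55 (adjusted p = 0.000872 in edgeR). Its paralogue Ttc30a1, at the same locus, had 1.28, 8.59 and 4.29 CPM in the IP libraries, against 1.59, 1.92, 0.41 and 0.54 in the Inputs (log2 fold 2.08 ± 0.86 SE, adjusted p = 0.185 in edgeR). Of the 50-base stretches of the longest transcript, 31.8% of Ttc30a1 and 34.8% of Ttc30b occur in another gene of this family, and reads aligned to several places were not counted, so both levels are uncertain.

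Ift81, the subunit that with Ift74 binds tubulin, had the smallest fold of the core. Its levels were 40.5, 60.9 and 51.1 CPM in IP 1, IP 3 and IP 4, against 35.8, 35.1, 40.6 and 30.3 in the Inputs, so IP 1 lay just inside the Input range. The log2 fold was 0.52 ± 0.23 (SE, adjusted p = 0.215 in edgeR). Ift74, its partner in a coiled-coil pair, averaged 36.2 ± 20.6 CPM in IP and 16.6 ± 1.79 in the Inputs (SD, n = 3 and 4), with a log2 fold of 1.12 ± 0.41 (SE, adjusted p = 0.138 in edgeR). The 2 partners therefore had different point values, and their difference was not tested.

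Ift88, the subunit whose loss shortens or removes cilia in mice, had 34.8, 56.8 and 48.2 CPM in IP, against 15.3, 25.7, 20.0 and 28.2 in Input. All 3 IP libraries lay above all 4 Inputs, with a log2 fold of 1.06 ± 0.29 (SE, adjusted p = 0.0591 in edgeR). Ift88 overlaps the opposite-strand model Ift88os, and as the strand setting is not known its count is uncertain. Ift52, a scaffold of the core that binds Ift88, had 53.6, 68.8 and 60.8 CPM in IP, against 33.6, 33.3, 42.5 and 37.7 in Input, also without overlap (log2 fold 0.73 ± 0.21 SE, adjusted p = 0.0723 in edgeR).

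The other 5 core genes had folds of 0.69 to 1.26 on the log2 scale. Ttc26, needed for motile cilium function in fish and mice, averaged 20.4 ± 9.51 CPM in IP and 8.51 ± 2.27 in the Inputs (SD, n = 3 and 4), with a log2 fold of 1.26 (adjusted p = 0.0962 in edgeR). Ift22, a small GTPase-like subunit, averaged 71.0 ± 39.1 CPM in IP and 32.4 ± 13.2 in the Inputs. Ift27, another small GTPase of the train, averaged 22.1 ± 13.2 CPM in IP and 11 ± 2.39 in the Inputs. Hspb11, also called Ift25 and the partner of Ift27, averaged 22.5 ± 9.16 CPM in IP and 11.6 ± 4.22 in the Inputs. Ift46, which links the core to outer dynein arm cargo in Chlamydomonas, averaged 93.2 ± 49.8 CPM in IP and 57.9 ± 10.8 in the Inputs. The log2 folds of these 4 ran from 0.69 (Ift46) to 1.13 (Ift22), with adjusted p of 0.181 to 0.299 in edgeR. For Ift22, Ift27 and Ift46 IP 1 was below the mean Input, with log2 ratios of -0.21, -0.31 and -0.56, and for Hspb11 and Ttc26 it was above, at 0.30 and 0.37. The log2 fold of Ift46 was 1.06 without IP 1 (adjusted p = 0.00205 in edgeR).

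IFT-B2, the peripheral part of the train that holds the link to the kinesin motor, had 6 of 6 folds above 0, 1 of them called. The median fold was 0.73 on the log2 scale, with a range of 0.59 to 1.02. The summed level was 286 CPM in IP 1, 623 in IP 3 and 493 in IP 4, against 263 to 304 in the Inputs, so only IP 1 overlapped them. Without IP 1 the median was 1.0 and 4 of the 6 were called higher (edgeR), Ift20, Ift57, Traf3ip1 and Cluap1. In that fit 12.5% of all tested genes were called higher.

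Cluap1, also called Ift38, which binds Ift20 (chromosome 16, 3908801 to 3941147, plus strand), was the called gene of IFT-B2. It had 30.1, 45.3 and 46.6 CPM in IP 1, IP 3 and IP 4, against 20.7, 17.5, 21.8 and 20.0 in Inputs 1 to 4, with no overlap. Its log2 fold was 1.02 ± 0.25 (SE, adjusted p = 0.0435 in edgeR), and with the replicate block it was 0.94 and no longer called (adjusted p = 0.211 in edgeR). Of 50-base stretches of its transcript 26.6% occur in the model Gm20695, and its exons overlap other models on either strand, so its count is uncertain.

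Ift80, whose human mutations cause a skeletal ciliopathy, had the smallest fold of IFT-B2. It had 52.4, 73.6 and 56.4 CPM in IP, against 44.7, 33.3, 50.02 and 33.9 in Input, with no overlap, although the lowest IP lay close to the highest Input. The log2 fold was 0.59 ± 0.24 (SE, adjusted p = 0.179 in edgeR). Ift20, the subunit that also sits at the Golgi, had 52.0, 211 and 173 CPM in IP, against 61.9, 79.8, 114 and 117 in Input, so IP 1 was below every Input and IP 3 and IP 4 above (log2 fold 0.64 ± 0.42 SE, adjusted p = 0.418 in edgeR, and 1.04 without IP 1). Ift172, the large subunit of the periphery, ran the other way, with 45.6, 25.7 and 29.2 CPM in IP, against 22.8, 22.8, 14.4 and 17.0 in Input, so IP 1 was the highest library (log2 fold 0.80 ± 0.30 SE, adjusted p = 0.151 in edgeR, and 0.51 without IP 1).

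Traf3ip1, also called Ift54, averaged 42.0 ± 13.0 CPM in IP and 21.3 ± 5.34 in the Inputs (SD, n = 3 and 4), without overlap (log2 fold 0.98 ± 0.31 SE, adjusted p = 0.0921 in edgeR). Ift57, a coiled-coil partner of Ift20, averaged 145 ± 68.2 CPM in IP and 91.0 ± 9.67 in the Inputs (log2 fold 0.67 ± 0.30 SE, adjusted p = 0.213 in edgeR), and overlaps the opposite-strand model Gm15518. Over IFT-B1 and IFT-B2 together IP 3 and IP 4 were above every Input for all 17 genes and IP 1 for 6. The shares over all tested genes were 32.6% for IP 3, 31.7% for IP 4 and 31.4% for IP 1.

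IFT-A, the complex of the return journey, had 6 of 6 folds above 0, 1 of them called. The median fold was 0.72 on the log2 scale, with a range of 0.18 to 2.73. Without Ift43 the highest fold of the complex was 0.84, so 1 member stood far from the rest. The summed level was 202 CPM in IP 1, 253 in IP 3 and 195 in IP 4, against 104 to 130 in the Inputs, with no overlap. IP 1 was above every Input for 5 of the 6 genes, IP 3 for 4 and IP 4 for 3. Over all tested genes the shares were 31.4% for IP 1, 32.6% for IP 3 and 31.7% for IP 4. Without IP 1 the median was 0.47 and 2 of the 6 were called higher, where 12.5% of all genes then tested were (edgeR).

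Ift43 (chromosome 12, 86082541 to 86162459, plus strand), a small peripheral IFT-A subunit that binds Wdr35, had the largest fold of all 32 genes. It had 11.5, 95.0 and 61.9 CPM in IP 1, IP 3 and IP 4, against 5.003, 8.18, 10.8 and 9.997 in Inputs 1 to 4. All IP libraries lay above all Inputs, IP 1 only just. The level was 6.61-fold higher in IP, a log2 fold of 2.73 ± 0.59 (SE, adjusted p = 0.0318 in edgeR). With the block it was 2.34 and not called (adjusted p = 0.0742 in edgeR), and without IP 1 it was 3.21 (adjusted p = 3.6e-06 in edgeR).

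Ttc21b, also called Ift139, had the smallest fold of IFT-A. It had 40.3, 21.7 and 16.4 CPM in IP, against 23.1, 23.2, 20.2 and 25.7 in Input, so IP 1 was above every Input, IP 3 among them and IP 4 below them. The log2 fold was 0.18 ± 0.33 (SE, adjusted p = 0.804 in edgeR) and -0.28 without IP 1. Ift140, a core IFT-A subunit, had 25.3, 9.34 and 8.89 CPM in IP, against 9.79, 6.93, 9.26 and 6.39 in Input, and its log2 fold of 0.84 ± 0.44 (SE, adjusted p = 0.296 in edgeR) was 0.17 without IP 1.

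Wdr19, also called Ift144, averaged 48.5 ± 14.5 CPM in IP and 30.2 ± 6.11 in the Inputs (SD, n = 3 and 4), with a log2 fold of 0.68 ± 0.28 (SE, adjusted p = 0.177 in edgeR). Wdr35, also called Ift121 and the partner of Ift43, averaged 47.4 ± 11.1 CPM in IP and 28.1 ± 9.76 in the Inputs (log2 fold 0.75 ± 0.31 SE, adjusted p = 0.178 in edgeR). Ift122, another core subunit, averaged 23.7 ± 3.93 CPM in IP and 15.8 ± 2.31 in the Inputs and did not overlap (log2 fold 0.58 ± 0.28 SE, adjusted p = 0.245 in edgeR). Wdr35 was called higher without IP 1 (log2 fold 0.92, adjusted p = 0.0323 in edgeR), while Wdr19 and Ift122 were not.

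Tulp3 (chromosome 6, 128321161 to 128355851, minus strand), the adaptor that binds IFT-A and brings receptors into the cilium, had 52.3, 203 and 128 CPM in IP 1, IP 3 and IP 4, against 28.8, 37.4, 29.4 and 40.3 in Inputs 1 to 4. The groups did not overlap. The level was 3.77-fold higher in IP, a log2 fold of 1.91 ± 0.38 (SE, adjusted p = 0.0231 in edgeR). With the block it was 1.77 and not called (adjusted p = 0.102 in edgeR).

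Kinesin-2, the motor towards the tip, had 3 of 4 folds above 0 and 0 called. Its median fold was 0.18 on the log2 scale, with a range of -0.14 to 0.42. The summed level was 862 CPM in IP 1, 532 in IP 3 and 517 in IP 4, against 502 to 598 in the Inputs, so IP 1 was above the Input range and IP 3 and IP 4 within it. IP 1 was above every Input for 4 of 4 genes, and IP 3 and IP 4 for 1 gene each, Kif3b. Over all tested genes the shares were 31.4% for IP 1, 32.6% for IP 3 and 31.7% for IP 4. Without IP 1 the median was -0.15 and 0 of 4 were called (edgeR). In that fit 12.5% of all tested genes were called higher and 9.55% lower.

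Kif3b, 1 of the motor subunits of the heterotrimer, had 110, 111 and 108 CPM in IP, against 88.7, 79.1, 84.2 and 76.9 in Input. Relative to its mean it had the narrowest IP spread of the 32 genes, and no overlap, with a log2 fold of 0.42 ± 0.17 (SE, adjusted p = 0.179 in edgeR), the largest of the 4. Kif3a, the other motor subunit, had 372, 217 and 196 CPM in IP, against 278, 271, 241 and 216 in Input, so IP 1 was highest and IP 4 lowest of all libraries (log2 fold 0.06 ± 0.24 SE, adjusted p = 0.923 in edgeR). Kifap3, the accessory subunit that holds cargo, had 342, 199 and 197 CPM in IP, against 189, 235, 190 and 179 in Input (log2 fold 0.31 ± 0.23 SE, adjusted p = 0.486 in edgeR). In both the high value was IP 1, and without it the log2 folds were -0.29 for Kif3a and -0.0058 for Kifap3.

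Kif17, the homodimeric kinesin-2 that is also known from neuronal dendrites, was the gene with a fold below 0. It had 38.0, 4.78 and 16.4 CPM in IP 1, IP 3 and IP 4, against 26.3, 13.4, 18 and 29.4 in Input, so the IP libraries spanned the whole Input range. The log2 fold was -0.14 ± 0.58 (SE, adjusted p = 0.916 in edgeR), -1.04 without IP 1 (adjusted p = 0.13 in edgeR) and 0.30 without IP 3. Kif17 overlaps Sh2d5 on its own strand, so its count is uncertain.

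Dynein-2, the motor back to the base, had 4 of 4 folds above 0, 1 of them called. The median fold was 1.23 on the log2 scale, with a range of 0.06 to 1.78, so its genes differed widely. The summed level was 285 CPM in IP 1, 228 in IP 3 and 189 in IP 4, against 122 to 155 in the Inputs, with no overlap. Without IP 1 2 genes were called higher and 1 lower, where 12.5% and 9.55% of all genes then tested were (edgeR).

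Wdr34, an intermediate chain (chromosome 2, 30031546 to 30048881, minus strand), had 29.1, 66.4 and 66.9 CPM in IP, against 23.3, 24.6, 21.2 and 25.1 in Input, without overlap. The log2 fold was 1.20 ± 0.30 (SE, adjusted p = 0.0468 in edgeR), and with the block it was 1.13 and not called (adjusted p = 0.191 in edgeR). Its partner intermediate chain Wdr60 had 67.9, 31.8 and 25.2 CPM in IP, against 23.8, 13.3, 17.6 and 14.5 in Input, also without overlap but with IP 1 highest (log2 fold 1.27 ± 0.37 SE, adjusted p = 0.0758 in edgeR, and 0.72 without IP 1). The order of the IP libraries thus differed between the 2 intermediate chains.

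Dync2li1, the light intermediate chain, had the largest fold of dynein-2. It had 19.8, 79.9 and 61.4 CPM in IP, against 25.2, 9.21, 11.9 and 16.3 in Input, so IP 1 lay within the Input range. The log2 fold was 1.78 ± 0.47 (SE, adjusted p = 0.0561 in edgeR). Dync2h1, the heavy chain that holds the motor domain, had 168, 50.2 and 35.7 CPM in IP, against 77.3, 77.1, 71.3 and 99.3 in Input, so IP 1 was above every Input and IP 3 and IP 4 below every Input. Its log2 fold of 0.06 ± 0.46 (SE, adjusted p = 0.956 in edgeR) averaged these opposite values, and without IP 1 it was -0.92 and called lower (adjusted p = 0.00849 in edgeR). Its transcript is the longest of the 32, at 14264 bases.

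**Figure D3:**
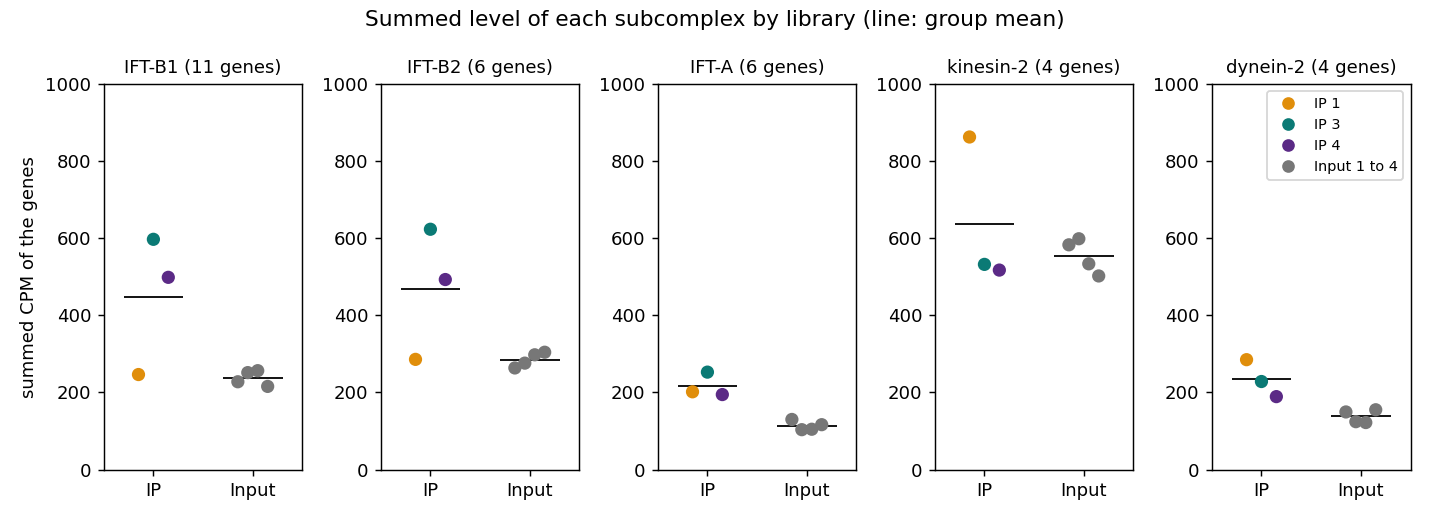
Summed CPM of the genes of each subcomplex in each library, IP left and Input right, with the group mean as a line. IFT-A and dynein-2 sums do not overlap between IP and Input, IFT-B1 and IFT-B2 overlap in IP 1 only, and kinesin-2 overlaps in IP 3 and IP 4.

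The 4 calls depended on which libraries were used. Without IP 1 all 4 were called, with adjusted p from 3.6e-06 (Ift43 and Tulp3) to 0.0026 (Cluap1) in edgeR. Without IP 3 Tulp3 was called (adjusted p = 0.0492 in edgeR) and the other 3 were not (0.0673 for Ift43, 0.101 for Cluap1 and 0.113 for Wdr34). Without IP 4, or without any 1 Input, none of the 4 was called (edgeR adjusted p from 0.0718 to 0.171), although each log2 fold stayed at or above 0.91. Few genes of any kind were called in these fits. Over all tested genes 10 were called higher without IP 4 and 4 to 21 without 1 Input. Without IP 3 the number was 343, beside 633 with every library (edgeR). DESeq2 called these 4 and 7 more of the 32, where it called 8.03% of tested genes higher and 5.54% lower. Limma-voom called 0 of the 32, where it called 0.432% of tested genes higher and 1.09% lower. The fit with the block and length offsets called 1, Ift43 (adjusted p = 0.0284 in edgeR), where it called 0.858% higher and 0.391% lower.

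Levels were compared between genes per kilobase of the longest annotated coding transcript. On this scale Ift20 was highest in both groups, at 127 ± 72.6 CPM per kb in IP and 81.7 ± 23.5 in the Inputs (SD, n = 3 and 4). Kif3a followed in both, at 82.7 ± 30.4 CPM per kb in IP and 79.6 ± 8.99 in Input. Ift43 was in place 3 in IP, at 71.7 ± 53.7 CPM per kb, and in place 14 in Input, at 10.8 ± 3.27. In IP the gap between Ift20 and Kif3a was within the SD of Ift20 and wider than that of Kif3a, and the gap between Kif3a and Ift43 was within the SD of both.

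Dync2li1 was in place 6 in IP at 39.7 ± 22.7 CPM per kb and in place 11 in Input at 11.6 ± 5.17, and Tulp3 in place 7 in IP at 37.9 ± 22.4 and in place 16 in Input at 10.1 ± 1.70. Kif17 went the other way, in place 29 in IP at 5.71 ± 4.88 CPM per kb and in place 20 in Input at 6.31 ± 2.13. Ttc30a1 was lowest in both groups, at 1.27 ± 0.987 CPM per kb in IP and 0.30 ± 0.203 in Input. By subcomplex the median level per kb was 17.2 in IP and 10.5 in Input for IFT-B1, 18.9 and 10.6 for IFT-B2, 6.79 and 4.98 for IFT-A, 40.4 and 32 for kinesin-2, and 20.5 and 8.62 for dynein-2, in that order of groups.

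**Figure D4:**
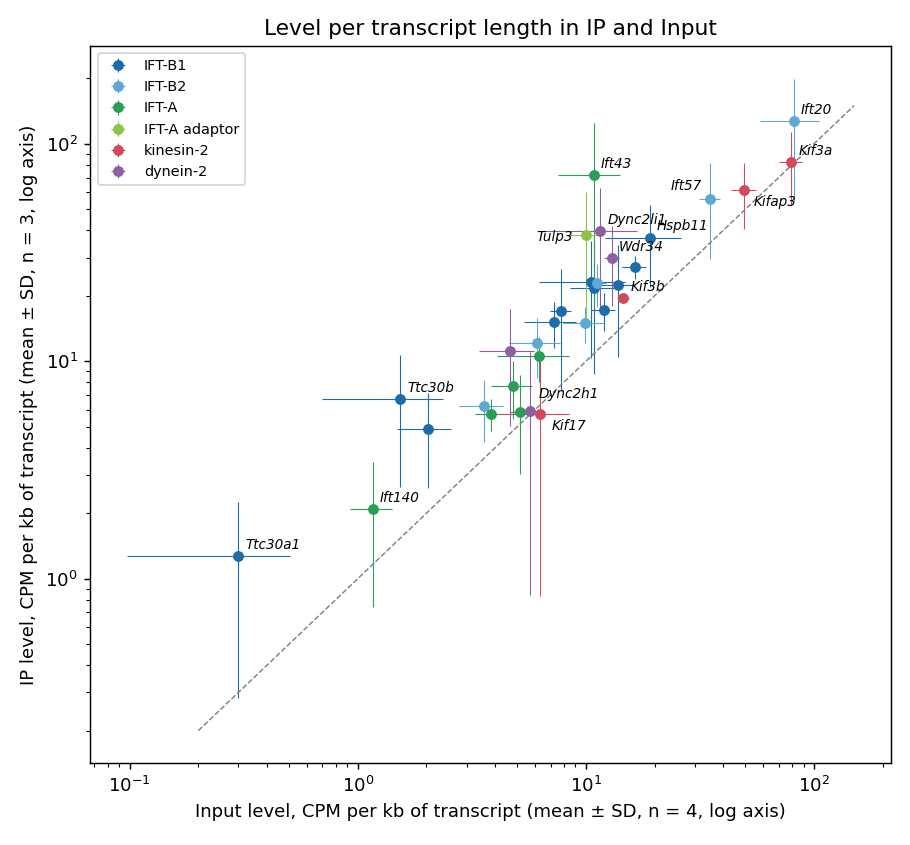
Level of each gene per kilobase of transcript, IP (vertical) against Input (horizontal), mean ± SD on log axes, with the dashed line of equality. Ift43, Tulp3 and Dync2li1 stand furthest above the line among the abundant genes, and Kif3a, Kif17 and Dync2h1 lie on or near it.

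Transcript length moved with the order of the IP libraries. Across the 32 genes, which share libraries and are not independent replicates, log2 length and the log2 ratio to mean Input had Pearson's r of 0.49 in IP 1, -0.51 in IP 3 and -0.57 in IP 4 (Spearman's rho 0.52, -0.57 and -0.59). Across 15187 tested genes with a length, r was 0.16, -0.04 and -0.002. In the 16 shorter genes (608 to 3374 bases) the median log2 ratio came to 0.37 for IP 1, 1.52 for IP 3 and 1.19 for IP 4. In the 16 longer genes (3453 to 14264 bases) it was 0.79, 0.59 and 0.54. IP 1 was the lowest IP library for 15 of the 16 shorter genes and 6 of the 16 longer ones. A fit with length offsets called 5 of the 32 genes, the 4 above and Dync2li1 (log2 fold 1.71, adjusted p = 0.0383 in edgeR). It called 3.84% of tested genes higher and 2.83% lower. These offsets followed the trend over all genes with a length, not the stronger relation within the 32, so the part of length in the folds was not tested.

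**Figure D5:**
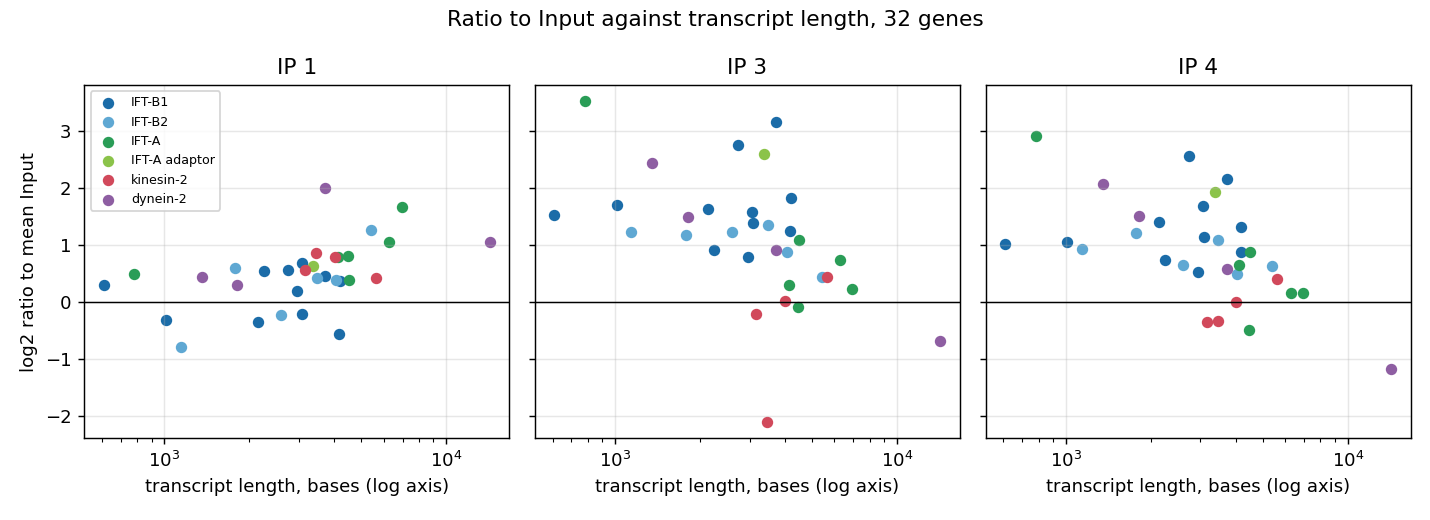
Log2 ratio of IP 1, IP 3 and IP 4 (1 panel each) to the mean Input against transcript length on a log axis, 1 point per gene, coloured by subcomplex. Points climb with length in IP 1 and descend in IP 3 and IP 4.

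Other parts of the same machinery gave mixed values. Of 7 dynein-2 light chains and other motor parts 1 was called higher and 0 lower, with a median log2 fold of -0.42. This list mixes several kinds of motor part, and 3 of the 7 had a log2 fold above 0. When IP 1 was left out, 3 were called higher and 3 lower, with a median of -0.20. In that fit 12.5% of all tested genes were called higher and 9.55% lower. The called gene was Dynlrb2, a roadblock light chain, with 21.5, 443 and 336 CPM in IP 1, IP 3 and IP 4, against 3.65, 0.939, 4.37 and 7.96 in Inputs 1 to 4. The groups did not overlap, and the log2 fold was 5.98 ± 1.01 (SE, adjusted p = 0.0176 in edgeR; adjusted p = 0.0616 and not called with the block). Dynll2, a light chain shared with other dyneins and myosin, had 100, 188 and 107 CPM in IP, against 230, 235, 231 and 232 in Input, with every IP below every Input (log2 fold -0.82 ± 0.24 SE, adjusted p = 0.0734 in edgeR). Tctex1d2 had 8.59, 93.1 and 58.4 CPM in IP, against 12.4, 17.2, 18.9 and 19.4 in Input. Its log2 fold was 1.65 ± 0.60 (SE, adjusted p = 0.141 in edgeR), and 2.16 without IP 1 (adjusted p = 3.8e-05 in edgeR).

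Of 14 tested regulators and cilium GTPases 2 were called higher and 0 lower (median log2 fold 0.27), and without IP 1 5 were called higher and 3 lower. Of all tested genes 3.64% were called higher and 2.16% lower with every library, and 12.5% and 9.55% without IP 1. Rabl2, a small GTPase that starts train entry, had 46.9, 139 and 120 CPM in IP, against 22.3, 31.9, 15.9 and 11.3 in Input, without overlap (log2 fold 2.33 ± 0.43 SE, adjusted p = 0.0185 in edgeR; adjusted p = 0.0821 with the block). Mak, a kinase of the cilium tip, had 8.07, 60.3 and 40.6 CPM in IP, against 5.57, 8.32, 7.67 and 3.51 in Input, with IP 1 inside the Input range (log2 fold 2.53 ± 0.58 SE, adjusted p = 0.0356 in edgeR; adjusted p = 0.153 with the block). Of 5 distal appendage genes, which anchor the cilium and dock trains, 0 were called (median 0.32), and 2 were called higher without IP 1. The smallest p were those of Cep89 (log2 fold 1.08 ± 0.38 SE, adjusted p = 0.128 in edgeR) and Cep164 (log2 fold 1.32 ± 0.58 SE, adjusted p = 0.209 in edgeR). Cep164 had 45.6, 14.9 and 12.9 CPM in IP 1, IP 3 and IP 4, against 4.64, 19.9, 7.62 and 6.98 in the Inputs, so only IP 1 lay above the Input range, and without IP 1 the log2 fold was 0.50.

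Of 10 cytoplasmic dynein-1 and kinesin-1 genes, motors that work outside the cilium, 0 were called (median log2 fold 0.11). Without IP 1 the median was -0.35, with 0 called higher and 3 lower, where 12.5% and 9.55% of all genes then tested were. Dync1li1 had a log2 fold of 0.45 ± 0.22 (SE, adjusted p = 0.251 in edgeR) and Dync1h1, the dynein-1 heavy chain, 0.99 ± 0.60 (SE, adjusted p = 0.382 in edgeR). Dync1h1 had 1070, 143 and 182 CPM in IP, against 251, 244, 196 and 245 in Input, so like Dync2h1 it was highest in IP 1 and below every Input in IP 3 and IP 4. Leaving out IP 1, Dync1h1 had a log2 fold of -0.53 and was called lower (adjusted p = 0.0374 in edgeR). Antisense models overlap Dync1h1, so its count is uncertain. Of 20 motile axoneme genes 14 were called higher and 0 lower, with a median of 3.67. With the replicate block 5 were called higher, with limma-voom 3, and the number was 17 without IP 1 and 0 without IP 4. Of all tested genes 3.64% were called higher with every library, 0.553% with the block, 0.432% with limma-voom and 12.5% without IP 1. Without IP 4 only 10 genes of any kind were called higher. Cfap44 and Ccdc40, the axoneme genes with the smallest p, had 24.9, 62.8 and 58.7 CPM and 12.1, 76.9 and 72.2 CPM in the IP libraries, against highest Input values of 10.2 and 4.43 CPM. The median of the 32 transport genes was thus lower than that of the axoneme list (0.82 and 3.67 on the log2 scale), a difference given without a test.

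Markers of other cell types were measured too. The mural cell and fibroblast markers summed to 78.4 to 1144 CPM in IP and 29.6 to 70.7 in Input, with 4 of 6 called higher. All 6 had a log2 fold above 0, and their median of 3.85 lay beside 3.67 for the motile axoneme list. Without IP 1 all 6 were called higher (edgeR). Of all tested genes 3.64% were called higher and 2.16% lower with every library, and 12.5% and 9.55% without IP 1. Astrocyte markers summed to 1291 to 2388 CPM in IP and 2418 to 2601 in Input (1 of 6 called higher), although 5 of 6 had a log2 fold above 0 and the median was 0.65, with 4 called higher and 1 lower without IP 1. Endothelial markers summed to 6.39 to 19.7 CPM in IP and 6.02 to 8.57 in Input (1 of 6 called higher, Cdh5). Only 3 of these 6 had a log2 fold above 0, with a median of -0.17, and Cdh5 alone had 13.3 CPM in IP 3. Oligodendrocyte markers summed to 2542 to 4171 CPM in IP and 4128 to 5649 in Input (2 of 6 called lower). Their median log2 fold was -0.62, and 2 of 6, Mag (0.76) and Cnp (0.29), were above 0. Neuronal markers summed to 6977 to 8127 CPM in IP and 9181 to 11919 in Input, choroid plexus markers to 1269 to 2999 in IP and 2249 to 4103 in Input, and microglial markers to 61.9 to 103 in IP and 60.9 to 88.1 in Input, with 0 of 6 called in each. Log2 folds above 0 were found for 1 of 6 neuronal, 4 of 6 choroid plexus and 1 of 6 microglial markers (medians -0.39, 0.23 and -0.16). Ttr made up most of the choroid plexus sum, with means of 2187 CPM in IP and 2918 in Input. The endothelial, oligodendrocyte, choroid plexus and microglial sums overlapped between IP and Input. With the replicate block 0 of the mural, astrocyte, endothelial and oligodendrocyte markers were called. In that fit 0.553% of all tested genes were called higher and 0.19% lower. None of these markers was at 0 in every library, and the part of these cells in the levels of the transport genes was not tested.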

How the data were processed

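RNA of 3 IP and 4 Input libraries was measured by sequencing. The authors deposited 1 table of raw read counts for each library, in whole numbers by gene symbol and with no scaling. Per the submitters' processing notes, the authors used STAR 2.0.0e and HTSeq with the mouse build mm10. Not given in the sources used here were the settings, gene annotation, strand and library kit. Unassigned, ambiguous and multiply aligned reads (40.1% to 52.1% of a library) were left out of library sizes and tests.

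In R 4.3.3, edgeR 4.0.16 kept 17375 genes (filterByExpr, count of at least 10 and total of at least 15). After TMM scaling, IP and Input were compared by the quasi-likelihood test (robust glmQLFit, group as the only term), with Benjamini-Hochberg adjustment over all tested genes and a threshold of 0.05. The standard error of a log2 fold was derived from it and the F statistic. Counts-per-million are on the TMM scale, and ratios of single libraries use a prior count of 2. Coordinates (1-based) and transcript lengths are from GENCODE release M21, which uses the same assembly as mm10, and promoters from the RefSeq table of GRCm38.p6. The fit was tested on simulated data with known changes.

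The members, subcomplexes, pathway lists and markers were chosen with earlier results of these data known. All 32 genes are named, with the value in every library for those called, those with the largest or smallest fold of a subcomplex, those with a fold below 0, and some others. Of each pathway list the 2 genes with the smallest p are named, and Tctex1d2 beside them. Listed genes of the pathway lists that had no line in the tables were not analysed here.

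Equal replicate numbers were taken as pairs, since per the labels such libraries shared a sequencing lane. Across genes, their deviations from the group means correlated at 0.0318, 0.0426 and 0.0258, higher than for any unequal numbers of the same IP. Unequal numbers gave -0.0391 to 0.0119. All of these correlations were small and do not settle the pairing, which rests on the shared lane. Input 2 has no IP of its number and adds nothing to the blocked contrast. Alternatives were DESeq2 size factors, total counts, no low-count filter, the DESeq2 1.42.0 test, limma-voom (limma 3.58.1), the replicate block and leaving out each library. Length offsets, alone and with the block, were added after seeing the data.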

Additional observations from a re-analysis of the deposited data

Results flagged for a closer look

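Dync1h1, the heavy chain of cytoplasmic dynein-1, was the 1 gene of 42 examined in which a single Input library lay far from the other 3. Input 3 had 196 CPM, against 244 to 251 CPM in the other Inputs, and its gap to the nearest was 0.872 of the whole Input range, above Dixon's 95% critical value for 4 libraries. Chance flags about 1 in 20 groups. None of the 32 intraflagellar transport genes was flagged among the Inputs, and the 3 IP libraries are too few for this check.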

How the results depend on the processing

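Over all tested genes the number called higher in IP was 633, and it was 1396 with the DESeq2 test, 75 with limma-voom, 96 with the replicate block, 149 with the block and length offsets, and 4 to 2259 when 1 library was left out. The number called lower was 376, and 962, 189, 33 and 68 under the same settings in that order, and 16 to 1724 when 1 library was left out. Of the 32 genes 4 were called higher, and it was 11 with DESeq2, 0 with limma-voom, 0 with the block, 1 (Ift43) with the block and length offsets, and 0 to 20 when 1 library was left out. The number called lower was 0 and became 0 to 1. Without the low-count filter Ttc30b was called (edgeR adjusted p = 0.0483) and Cluap1 was not (0.0555). The median log2 fold of IFT-A was 0.47 to 0.82 and that of kinesin-2 -0.15 to 0.35 when 1 library was left out. Log2 folds changed sign for Ttc21b (-0.28 without IP 1, the lowest, to 0.43), Kif3a (-0.021 with the block and length offsets, -0.29 to 0.23 when 1 library was left out), Kifap3 (-0.0058 without IP 1, the lowest, to 0.45), Kif17 (-1.04 to 0.30 when 1 library was left out, above 0 without IP 3 and without Input 4), Dync1h1 (-0.53 without IP 1, the lowest, to 1.39) and Dync2h1 (-0.27 with limma-voom, -0.30 with the block, -0.23 with length offsets, -0.35 with both, -0.92 without IP 1, the lowest, to 0.43 when 1 library was left out). The cause of these changes was not tested. Ttc30a1 had the fewest counts of the 32 genes, 15 in 1 library, and the largest SE of its fold, 0.86.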
